A study of Mus musculus with 4 samples.

Results

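The genes for the eukaryotic translation initiation factors (Eif genes) were examined for binding of MIZ-1, a zinc finger transcription factor also called ZBTB17, in mouse B cells. All protein-coding genes of the GENCODE basic annotation of mm10 whose symbols begin with Eif and a digit from 1 to 6 were taken. This gave 55 of 21951 protein-coding genes, which fell into the 8 groups named below, and their pseudogenes were left out. Chromatin immunoprecipitation followed by sequencing (ChIP-seq) with the MIZ-1 antibody H-190 had been performed on B220+ splenocytes from MIZ-1WT mice and from MIZ-1DPOZ mice. MIZ-1DPOZ mice are MB1-cre x Miz-1floxedPOZ animals, in which Cre driven by the B lineage gene Mb1 (Cd79a) removes the POZ domain of MIZ-1. All lines were on a C57BL/6 background. The labels give no age, sex or number of animals. The methods of the study give an age range only for its experiments as a whole, and no sex. The truncated protein keeps its zinc fingers, so MIZ-1DPOZ is not a sample without MIZ-1. Each genotype had 1 ChIP and 1 input library, so no difference between genotypes has a replicate check and none was tested. Peak lists hold no expression values, and the labelled B220+ identity could not be checked against markers.

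Initiation begins when eIF2, loaded with GTP and the initiator tRNA, joins the small ribosomal subunit together with eIF1, eIF1A, eIF3 and eIF5. The eIF4 factors recognise the mRNA cap, unwind the leader and bring in the subunit, and eIF5B then joins the large subunit. The exchange factor eIF2B reloads eIF2 with GTP, and 4 kinases that phosphorylate eIF2 alpha block this step under stress. In lymphocytes these genes are needed for the growth that follows activation.

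Peaks had been called separately per genotype, with 34209 listed for MIZ-1WT and 78357 for MIZ-1DPOZ. For each peak the lists give a fold enrichment over the local background and a −log10 q, the strength of the call after adjustment over the genome. The number of ChIP fragments piled up at each summit was recovered from these scores. The median was 9 fragments for MIZ-1WT and 12 for MIZ-1DPOZ, so most peaks rested on few molecules. The MIZ-1DPOZ ChIP library was estimated to be 1.34 times deeper. Sequence that recurs elsewhere in the genome held the summits of 48.3% of MIZ-1WT and 43.1% of MIZ-1DPOZ peaks. Among protein-coding promoter peaks the shares were 3.97% and 5.56%, and among the 30 and 46 promoter peaks at Eif genes there were none.

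The Eif promoter peaks lay in GC-rich sequence. The stretches below are shown because they carry the strongest Eif promoter peaks of both lists and of each list alone. They run 5′ to 3′ on the strand of the gene, from mm10, and hold no untranslated exon. Capitals mark GGGCGG (an Sp1-type GC box) or CCGGAA (an ETS-type core) on either strand.
Eif2b3, MIZ-1WT summit (chr4:117019324-117019401, plus strand, the bases just before the gene): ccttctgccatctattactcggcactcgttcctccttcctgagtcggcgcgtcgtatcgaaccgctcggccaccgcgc
Eif2b3, MIZ-1DPOZ summit (chr4:117019477-117019552, plus strand, start of the first intron): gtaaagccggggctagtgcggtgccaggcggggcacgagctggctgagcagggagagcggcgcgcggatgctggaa
Eif5b, MIZ-1WT summit (chr1:37998351-37998501, plus strand, intron): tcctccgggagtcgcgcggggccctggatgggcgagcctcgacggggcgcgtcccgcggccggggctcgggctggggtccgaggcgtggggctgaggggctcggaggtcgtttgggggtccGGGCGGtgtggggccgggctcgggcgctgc
Eif3f, MIZ-1DPOZ summit (chr7:108934561-108934711, plus strand, coding exon): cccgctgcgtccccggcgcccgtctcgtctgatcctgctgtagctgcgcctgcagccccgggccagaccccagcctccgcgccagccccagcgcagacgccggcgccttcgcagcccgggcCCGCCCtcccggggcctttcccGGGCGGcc
Eif3m, MIZ-1WT summit (chr2:105016800-105016950, minus strand, intron): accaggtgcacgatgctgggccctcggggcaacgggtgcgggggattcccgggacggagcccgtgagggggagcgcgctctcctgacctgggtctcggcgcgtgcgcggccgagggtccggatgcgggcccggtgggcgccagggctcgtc
Eif4a1, MIZ-1WT alone (chr11:69671793-69671903, minus strand, intron): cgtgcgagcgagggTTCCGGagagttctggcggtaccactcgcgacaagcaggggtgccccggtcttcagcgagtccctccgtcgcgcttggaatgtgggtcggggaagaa
Eif1b, MIZ-1DPOZ alone (chr9:120492915-120493065, plus strand, intron): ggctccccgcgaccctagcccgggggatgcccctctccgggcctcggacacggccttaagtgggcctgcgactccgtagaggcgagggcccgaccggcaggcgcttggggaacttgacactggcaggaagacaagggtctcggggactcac

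The stretch before Eif2b3 had a GC content of 62.8%, below the 80.8% of the Eif5b stretch. It held none of the 6 motifs searched. Those were the E-box CACGTG that MYC can bind, the GC box GGGCGG, the ETS-type core CCGGAA, the NRF1-type core GCGCATGC, the YY1-type core AAGATGGC and the CCAAT box, each on both strands and none part of another.

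Whether MIZ-1 peaks lay at Eif promoters was asked first. A promoter ran from 2000 bp before to 1000 bp after any annotated start, and the 55 genes had 114 such starts. In the MIZ-1WT list 28 Eif genes carried a promoter peak (50.9%, 95% Wilson interval 38.1 to 63.6), against 30.9% of all protein-coding genes. For MIZ-1DPOZ the number was 36 (65.5%, 52.3 to 76.6), against 48.7%. Intervals of shares and of single ratios, here and below, cover counting error only.

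Eif promoters are richer in GC than most. Their median GC content was 59.1%, against 54.7% over all protein-coding genes, and promoter peaks became more frequent with GC in both lists. From the lowest to the highest decile of GC, the share of other genes with a promoter peak went from 3.19% to 81.3% for MIZ-1WT and from 6.83% to 94.4% for MIZ-1DPOZ. Weighted to the GC deciles of the Eif genes, 42.0% of other genes had a MIZ-1WT promoter peak and 63.4% a MIZ-1DPOZ promoter peak. The Eif share was 8.94 percentage points above the first value and 2.05 above the second. Both weighted values lay inside the intervals of the Eif shares, so an excess over genes of like GC was not detectable with 55 genes.

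**Figure D1:**
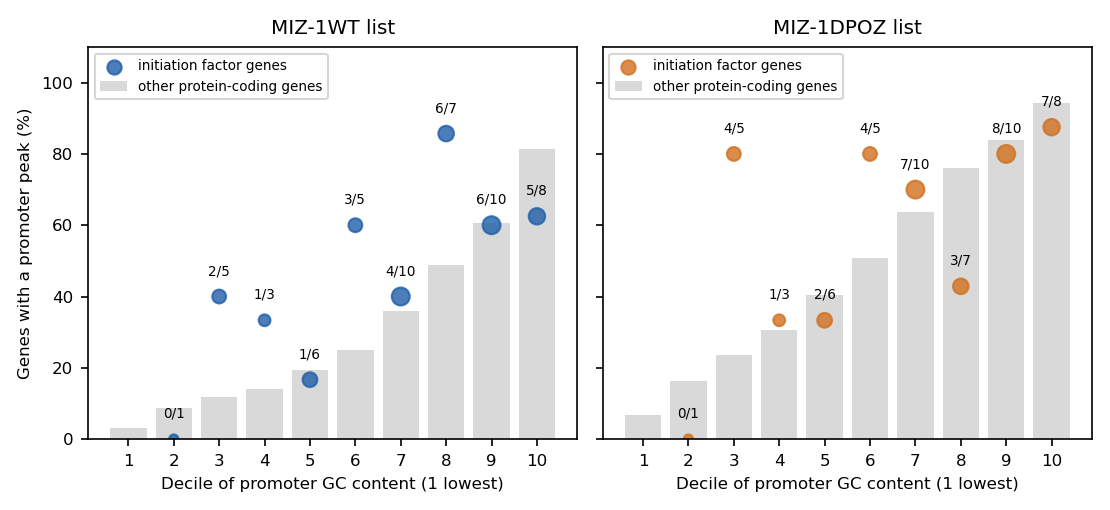
Share of genes with a promoter peak (y axis, percent) by decile of promoter GC content (x axis) in the MIZ-1WT list (left) and the MIZ-1DPOZ list (right). Grey bars are the other protein-coding genes, points the Eif genes with the number bound over the number in that decile. The bars climb with GC in both panels, and the points scatter on both sides of them.

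Promoter peaks were present in both lists at 22 Eif genes (40.0%, 28.1 to 53.2), against 26.6% of all protein-coding genes and 36.7% after weighting by GC. At 19 of these 22 (86.4%) the peaks themselves overlapped, against 88.5% of the protein-coding genes in both lists. A peak in MIZ-1WT alone was found at 6 Eif genes (10.9%, 5.10 to 21.8), against 4.23% of all and 5.24% after weighting. A peak in MIZ-1DPOZ alone was found at 14 (25.5%, 15.8 to 38.3), against 22.0% and 26.7%. These counts moved with list length. With the MIZ-1DPOZ list cut to the 34209 peaks of largest −log10 q, its Eif genes fell in number to 23, with 14 genes in both lists, 14 in MIZ-1WT alone and 9 in MIZ-1DPOZ alone. The 23 genes were 41.8% of the Eif genes, against 25.3% of all protein-coding genes and 33.4% after weighting by GC. For the split by list at this cut, no share over all genes is given.

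The strongest Eif promoter peak of the MIZ-1WT list was at Eif2b3, the gamma subunit of eIF2B. This gene (ENSMUSG00000028683.14) lies on the plus strand of chromosome 4. Its MIZ-1WT peak (chr4:117019305-117019529) had its summit 3 bp before the start, with 28 fragments, a fold of 13.4 and a −log10 q of 24.9. It ranked 98 of the 6777 protein-coding genes with a MIZ-1WT promoter peak. The MIZ-1DPOZ peak (chr4:117019336-117019592) had 16 fragments, a fold of 7.24 and a −log10 q of 9.96, ranked 1327 of 10684, and its summit lay 78 bp farther into the gene.

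Scaled for depth, the MIZ-1DPOZ pileup at Eif2b3 was 0.426 times that of MIZ-1WT (exact 95% interval 0.215 to 0.815). Eif2b3 was the only one of 20 overlapping pairs of Eif promoter peaks whose interval did not hold 1. Over all 5558 protein-coding promoter pairs, 5433 intervals held 1 and 66 lay wholly below it. Scaling by the background level in place of depth gave 0.365 (0.184 to 0.698). The interval covers the counting of fragments in these 2 libraries and not variation between mice. A second MIZ-1DPOZ peak of 15 fragments (−log10 q 8.91) lay in an intron 15595 bp after the start of Eif2b3, where the MIZ-1WT list had none.

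The next Eif promoter in MIZ-1WT height was Eif5a, which encodes the hypusine-carrying factor that resolves stalled ribosomes. Its MIZ-1WT peak held 14 fragments (fold 7.01, −log10 q 7.74). Its strongest MIZ-1DPOZ peaks were a pair of 10 fragments each (fold 4.68, −log10 q 4.19). The scaled ratio was 0.533 (0.212 to 1.29), an interval that held 1.

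At Eif5b, the GTPase of subunit joining, the peaks held 12 and 16 fragments in MIZ-1WT and MIZ-1DPOZ (−log10 q 7.06 and 9.96), with summits 416 and 512 bp after the start. At Eif5a2, the paralog of Eif5a, they held 9 and 16 (−log10 q 4.14 and 9.64). Both were taller in the deeper MIZ-1DPOZ library, and after scaling their ratios were 0.994 and 1.33 with intervals that held 1. Eif5, the GTPase activator of eIF2, had a peak in MIZ-1DPOZ alone, of 15 fragments (fold 6.57, −log10 q 8.54). Eif6, which keeps the large subunit from joining early, had no promoter peak in either list.

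**Figure D2:**
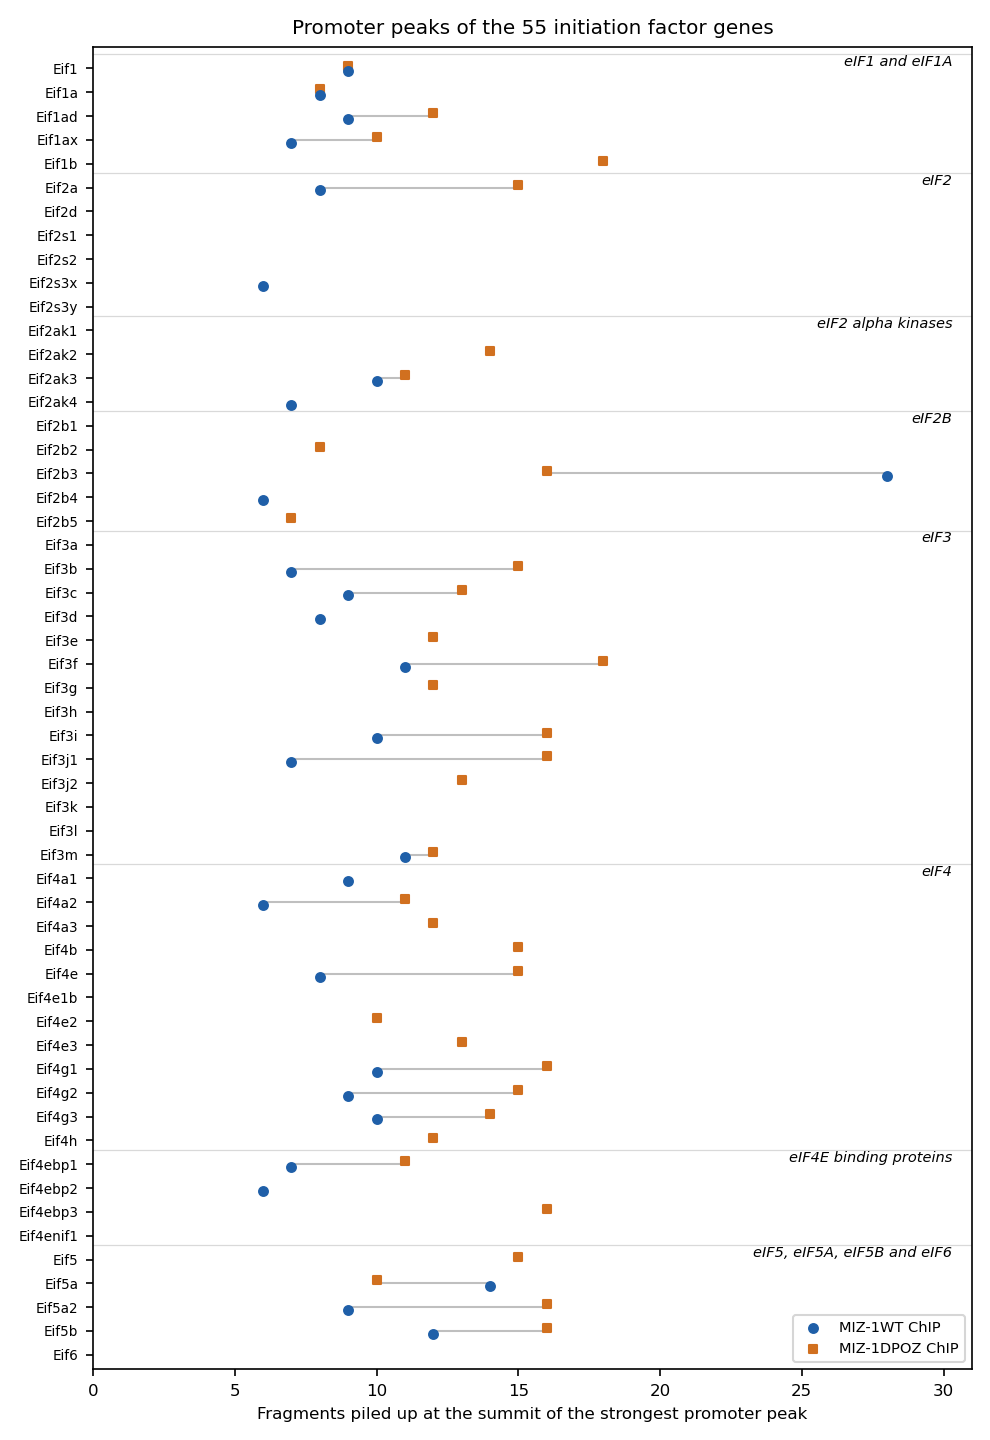
Fragments at the summit of the strongest promoter peak (x axis) for each of the 55 Eif genes (y axis, by group), with circles for MIZ-1WT and squares for MIZ-1DPOZ. A gene without a symbol had no promoter peak, and a grey line joins genes with both. Eif2b3 stands at 28 MIZ-1WT fragments, while the other MIZ-1WT values lie between 6 and 14 and the MIZ-1DPOZ values between 7 and 18.

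The remaining eIF2B subunits each appeared in at most 1 list. Eif2b4 (delta) had a MIZ-1WT peak of 6 fragments (−log10 q 1.63), the weakest Eif promoter peak of that list. Eif2b5 (epsilon, the catalytic subunit) had a MIZ-1DPOZ peak of 7 fragments (−log10 q 1.92), and Eif2b2 (beta) 1 of 8 fragments that lay 1749 bp before the start. Eif2b1 (alpha) had none. All of these peaks were below the Eif2b3 peak of the same list, with 28 fragments in MIZ-1WT and 16 in MIZ-1DPOZ.

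The eIF2 group, which here also holds Eif2a and Eif2d, had the lowest share of genes with a promoter peak. Eif2s1 and Eif2s2, the alpha and beta subunits, and Eif2s3y, the Y-linked gamma subunit, had none in either list. The sex of the mice is not stated, so a missing peak at Eif2s3y cannot be read as missing binding. The gene is still counted in this group. The X-linked gamma subunit Eif2s3x had a MIZ-1WT peak of 6 fragments (−log10 q 1.76), and the nearest MIZ-1DPOZ peak was 15.5 kb from its starts. Eif2a, a separate factor that can also bind initiator tRNA, was in both lists with 8 and 15 fragments (−log10 q 3.28 and 8.91). Eif2d, another such factor, had none. Thus 2 of 6 genes in this group had a MIZ-1WT promoter peak and 1 of 6 a MIZ-1DPOZ promoter peak. The shares of all protein-coding genes were 30.9% and 48.7%. Shares of single groups were not weighted by GC, and each group held 14 genes or fewer.

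Among the 4 kinases that phosphorylate eIF2 alpha, Eif2ak3 (PERK, the sensor of endoplasmic reticulum stress) was in both lists, with 10 and 11 fragments (−log10 q 4.93 and 5.05). Eif2ak4 (GCN2, the sensor of amino acid shortage) had a MIZ-1WT peak of 7 fragments 21 bp before its start (−log10 q 2.48). The nearest MIZ-1DPOZ peak was 7.59 kb from an Eif2ak4 start. Eif2ak2 (PKR, the sensor of double-stranded RNA) was the reverse, with a MIZ-1DPOZ peak of 14 fragments 17 bp before its start (fold 6.39, −log10 q 7.89) and the nearest MIZ-1WT peak 130.2 kb away. Eif2ak1 (HRI, the haem-regulated kinase) had none.

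The eIF3 complex, the scaffold that binds the small subunit, supplied 14 genes. Of these, 7 had a MIZ-1WT and 9 a MIZ-1DPOZ promoter peak, against 30.9% and 48.7% of all protein-coding genes. Eif3f led with 11 and 18 fragments (−log10 q 6.03 and 12.1), and its MIZ-1DPOZ peak was the strongest of any Eif promoter in that list. Eif3m, with 11 and 12 fragments (−log10 q 6.03 and 5.96), and Eif3i, with 10 and 16 (−log10 q 5.05 and 9.96), were close behind. Eif3i peaks lay before the start, at 380 and 262 bp, and nearer to the start of Tmem234 on the other side.

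Eif3c had 9 and 13 fragments (−log10 q 4.14 and 6.91), but its peaks did not overlap, with summits 398 and 111 bp after the start. Eif3b and the accessory subunit Eif3j1 each had 7 MIZ-1WT fragments against 15 and 16 in the deeper MIZ-1DPOZ library. Their scaled ratios were 1.60 and 1.70, with intervals that held 1. The Eif3j1 peaks did not overlap, with summits 71 bp before the start in MIZ-1WT and 463 bp after it in MIZ-1DPOZ. Eif3d, the subunit that can bind caps, was in MIZ-1WT alone, with 8 fragments (−log10 q 3.13). Eif3e, Eif3g and Eif3j2 were in MIZ-1DPOZ alone. Eif3e had 12 fragments (fold 5.54, −log10 q 5.96), Eif3j2 had 13 (fold 5.96, −log10 q 6.91) and Eif3g had 12 (fold 5.34, −log10 q 5.68). Eif3a, the largest scaffold subunit, and Eif3h, Eif3k and Eif3l had no promoter peak.

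Of the 12 eIF4 genes, 6 had a MIZ-1WT and 10 a MIZ-1DPOZ promoter peak, against 30.9% and 48.7% of all protein-coding genes. All 3 eIF4G scaffolds were in both lists. Eif4g1 had 10 and 16 fragments (−log10 q 3.61 and 8.76), Eif4g2 had 9 and 15 (4.00 and 8.47 on the same scale) and Eif4g3 had 10 and 14 (4.18 and 7.16). The Eif4g1 peaks lay at internal starts over 4 kb after the first start of the gene, with summits 4451 and 4965 bp from it in MIZ-1WT and 4828 bp in MIZ-1DPOZ. The cap-binding protein Eif4e had 8 and 15 fragments, also at an internal start.

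The helicases of the group were divided. Eif4a1, the main helicase of cap-dependent initiation, was in MIZ-1WT alone, with 9 fragments 489 bp from a start (fold 5.21, −log10 q 4.00), and the nearest MIZ-1DPOZ peak was 8.07 kb away. Its paralog Eif4a2 was in both lists with 6 and 11 fragments at places that did not overlap. Eif4a3, a core part of the exon junction complex, was in MIZ-1DPOZ alone with 12 fragments. Eif4b and Eif4h, which stimulate the helicase, were in that list only too, with 15 fragments (fold 6.81, −log10 q 8.91) and 12 (fold 5.54, −log10 q 5.96). The cap-binding paralog Eif4e3 followed with 13 fragments (fold 5.96, −log10 q 6.91) and Eif4e2 with 10 (−log10 q 4.19), and the oocyte form Eif4e1b had none.

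The eIF4E binding proteins, which hold the cap-binding protein inactive until mTORC1 phosphorylates them, were likewise spread over the lists. Eif4ebp1 was in both lists (7 and 11 fragments, −log10 q 2.48 and 5.05), Eif4ebp2 in MIZ-1WT alone (6 fragments, −log10 q 1.76) and Eif4ebp3 in MIZ-1DPOZ alone (16 fragments, fold 7.24, −log10 q 9.96). Eif4enif1, the transporter that carries eIF4E to the nucleus, had no promoter peak.

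The eIF1 group, with the eIF1 and eIF1A factors that read the start codon, was the only group with a promoter peak at every gene. It held 5 genes. Over all protein-coding genes, 10338 of 21951 had no promoter peak in either list. Eif1 had 9 fragments in each list. Eif1a had 8 in each, in peaks nearer to the start of Tmed7 than to its own. Eif1ax, the X-linked eIF1A gene, had 7 and 10. Eif1ad, a protein with an eIF1A domain, had 9 and 12 in its strongest peaks, which lay nearer to the start of Banf1 than to its own. Eif1b was in MIZ-1DPOZ alone, with 18 fragments (fold 7.19, −log10 q 10.7) in an intron 499 bp from a start, and the nearest MIZ-1WT peak was 40.4 kb away. The Eif1b peak was the strongest of those in MIZ-1DPOZ alone. Its summit lay 443 bp from the start of the antisense gene D830035M03Rik, nearer than to a start of Eif1b.

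For genes in 1 list alone, the distance to the nearest peak of the other list was taken. The nearest MIZ-1DPOZ peak to the 6 genes in MIZ-1WT alone was 6.81 to 23.1 kb from a start. For the 14 genes in MIZ-1DPOZ alone, the nearest MIZ-1WT peak was 3.98 to 130.2 kb away. The lists still met in the bodies of some of these genes, as at Eif4a3 and Eif2ak4 below. The MIZ-1WT peaks of the 6 genes held 6 to 9 fragments, against a median of 9 over all protein-coding promoter peaks of that list. With a −log10 q of 5 or more required, none of the 6 was kept. Eif5a then became the 1 gene in MIZ-1WT alone, since its MIZ-1DPOZ peaks were below that limit.

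Of 20 overlapping pairs, 8 had a scaled ratio below 1 and 12 above. The median was 0.16 on the log2 scale (95% interval of order statistics −0.30 to 0.31). Over all 5558 protein-coding promoter pairs it was 0.11 (0.10 to 0.12), with 41.2% below 1. Both intervals give the precision of a median over pairs within these libraries, not the spread of single pairs. Neither of these 2 intervals measures a difference between genotypes. Both intervals leave out error in the depth ratio, which all pairs share. Eif4g1 entered more than once, with the same MIZ-1DPOZ peak. Eif2b3 lay at −1.23. Less binding per cell and a mixture of cells with and without the deletion cannot be told apart in these counts.

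**Figure D3:**
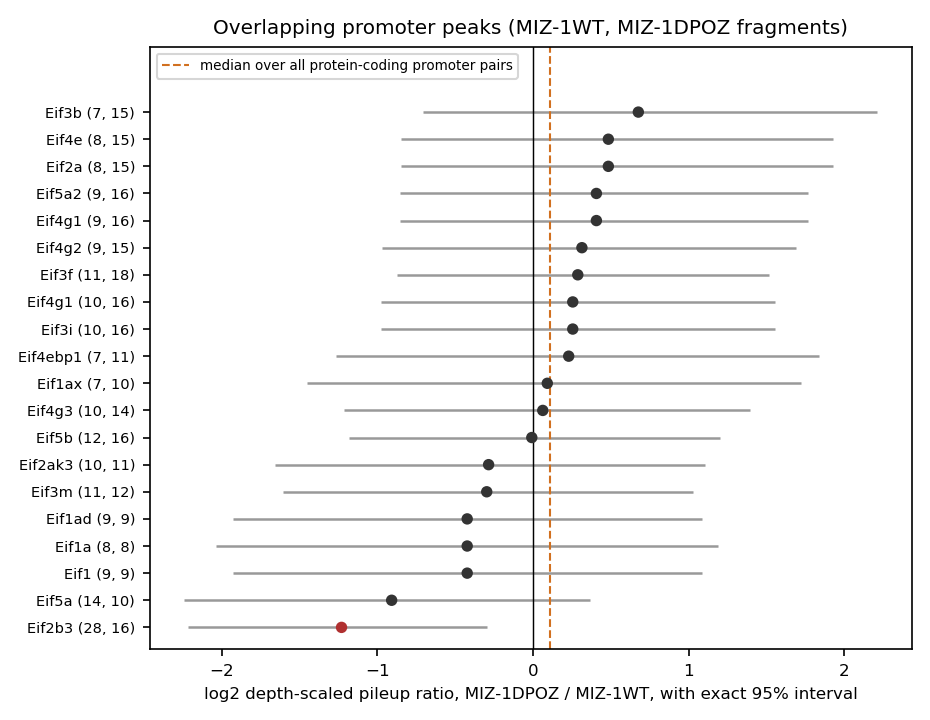
Depth-scaled ratio of MIZ-1DPOZ to MIZ-1WT summit pileup (x axis, log2) at the 20 overlapping pairs of Eif promoter peaks (y axis, with the fragments of each list), with exact 95% intervals as bars. The dashed line is the median over all protein-coding pairs, 0.11. Only the interval of Eif2b3, in red, lies wholly below 0.

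Tall promoter peaks of all protein-coding genes were read in the same way. Of the 130 protein-coding promoter pairs with at least 20 MIZ-1WT fragments, 100 had a scaled ratio below 1, with a median of −0.60 on the log2 scale. In 63 of them the interval lay wholly below 1. Choosing pairs by at least 27 MIZ-1DPOZ fragments instead gave 62 of 143 below 1 (median 0.30), and choosing them by a mean of the scaled pileups of at least 20 gave 83 of 136 (median −0.22). The height used for the choice thus moved the median. Eif2b3 was noticed for its MIZ-1WT height and belongs to the first of these groups only, so its low ratio is a description.

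Eif promoter peaks were otherwise of ordinary size for promoters. Among the genes with a promoter peak, the median −log10 q of the strongest peak was 3.45 for Eif genes and 4.14 for all protein-coding genes in the MIZ-1WT list, and 6.91 and 5.96 in the MIZ-1DPOZ list. Above the median of all genes lay 8 of 28 Eif genes for MIZ-1WT and 20 of 36 for MIZ-1DPOZ. The median pileup of all promoter genes and of Eif genes was the same, 9 fragments in MIZ-1WT and 13 in MIZ-1DPOZ.

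Summits lay mostly just inside the genes. The median summit was 122 bp after the nearest start for 30 MIZ-1WT peaks and 121 bp after it for 46 MIZ-1DPOZ peaks, against 85 and 116 bp for all protein-coding promoter peaks. Within 500 bp of a start lay 29 of the 30 (96.7%) and 41 of the 46 (89.1%), against 80.9% and 76.6% for all. In these position values for all, a peak counted once for each gene whose promoter window it entered. By annotation, 10 of the 30 MIZ-1WT summits were upstream of the gene, 10 in introns, 5 in coding exons and 5 in untranslated exons. Another gene's start was nearer than the Eif start for 4 MIZ-1WT and 8 MIZ-1DPOZ peaks, among them Eif1a beside Tmed7.

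**Figure D4:**
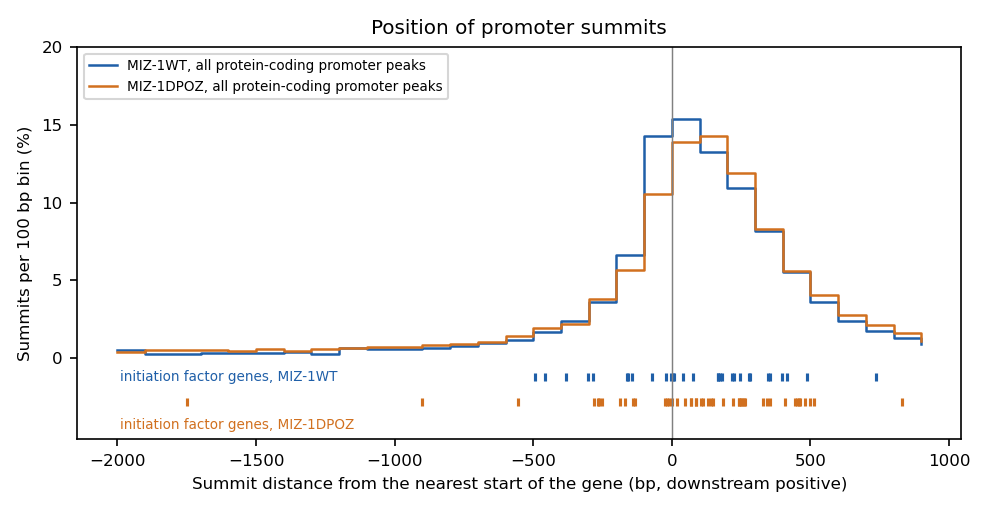
Summit position from the nearest start of the gene (x axis, bp, downstream positive) as the percent of all protein-coding promoter summits in bins of 100 bp (y axis), with 1 line for each list. A peak in the promoter windows of several genes counts once for each gene. Ticks below show the Eif summits, which crowd into the 500 bp on each side of the start, with medians of 122 bp in MIZ-1WT and 121 bp in MIZ-1DPOZ.

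Sequence was read in windows around the summits. In windows of 201 bp, the median GC content was 73.4% at MIZ-1WT and 71.9% at MIZ-1DPOZ Eif summits, against 73.6% and 70.6% at all protein-coding promoter summits. GGGCGG stood in 20 of 30 MIZ-1WT windows (66.7%) against 65.1% of all, and in 26 of 46 MIZ-1DPOZ windows (56.5%) against 56.2%. CACGTG stood in 1 of 30 (3.33%, against 4.63%) and 3 of 46 (6.52%, against 3.79%). CCGGAA stood in 7 of 30 (23.3%, against 11.0%) and 9 of 46 (19.6%, against 9.94%).

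CCAAT stood in 2 of 30 MIZ-1WT windows (6.67%, against 9.29%) and 7 of 46 MIZ-1DPOZ windows (15.2%, against 9.91%). AAGATGGC stood in 0 of 30 (against 2.23%) and 3 of 46 (6.52%, against 1.72%), and GCGCATGC in none of either list (against 1.58% and 1.18%). In RefSeq promoters (GRCm38.p6, 300 bases across the start), which matched 43 Eif genes, CACGTG stood in 8 (18.6%) against 8.11% of 16522, and CCGGAA in 20 (46.5%) against 19.6%. GGGCGG stood in 32 (74.4%) against 48.0%, AAGATGGC in 4 (9.30%) against 3.29% and GCGCATGC in 3 (6.98%) against 3.76%. CCAAT went the other way, with 13 (30.2%) against 38.7%. A match describes the letters of these windows only. The RefSeq shares were not weighted by GC content, in which Eif promoters are richer than most.

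Peaks in gene bodies, outside every promoter window of the gene, were fewer at Eif genes. The MIZ-1WT list had 12 such peaks in 9 Eif genes (16.4%, 8.86 to 28.3), against 24.2% of all protein-coding genes. The MIZ-1DPOZ list had 23 in 14 genes (25.5%, 15.8 to 38.3), against 42.7%. Weighted to the GC deciles of the Eif genes, 28.0% and 49.2% of other genes had a MIZ-1WT and a MIZ-1DPOZ body peak. Weighted to the gene lengths of the Eif genes instead, the values were 20.01% and 39.8%. In both weightings the MIZ-1DPOZ value lay above the interval of the Eif share and the MIZ-1WT value inside its own. Per Mb of gene body the Eif genes had 8.15 MIZ-1WT and 15.6 MIZ-1DPOZ peaks, against 9.24 and 23.6 for all.

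Summits present more than once in the genome made up 5 of 12 MIZ-1WT (41.7%) and 5 of 23 MIZ-1DPOZ (21.7%) Eif body peaks. For all protein-coding body peaks these shares were 45.1% and 33.5%. Several of the strongest Eif body peaks lay in repeated sequence. The strongest was at Eif2ak4, with 27 MIZ-1DPOZ fragments (fold 10.0, −log10 q 19.8) in an intron 38215 bp after the start (chr2:118426689-118426993). That window was 100% repeat-masked and present 3 times in the genome by the median of its 50-base sequences. The MIZ-1WT peak beside it held 11 fragments (−log10 q 5.40). At Eif3b, an intron 19737 bp after the start held 27 MIZ-1DPOZ fragments (−log10 q 15.8) over a peak of 917 bp, and 9 MIZ-1WT fragments (−log10 q 3.94). The 50 bases at that MIZ-1DPOZ summit occurred 9 times within 5000 bp, a local tandem array. The strongest MIZ-1WT body peak, at Eif4enif1 (12 fragments, −log10 q 7.06), was 98.5% masked and present 18 times.

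Single-copy body peaks were smaller. Eif2ak2 had 15 MIZ-1DPOZ fragments in an intron 9464 bp after its start (−log10 q 8.91), equal to the intronic peak of Eif2b3. Eif4a3 had 9 MIZ-1WT and 10 MIZ-1DPOZ fragments at overlapping peaks 4051 and 3997 bp after the start. Eif2ak3 had 9 and 12 at overlapping peaks 57924 and 57955 bp into the gene, and the MIZ-1WT summit there was present 2 times. Eif4g3, the longest Eif gene, had 7 MIZ-1DPOZ and 2 MIZ-1WT body peaks, of which 3 and 1 were at repeated summits.

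**Figure D5:**
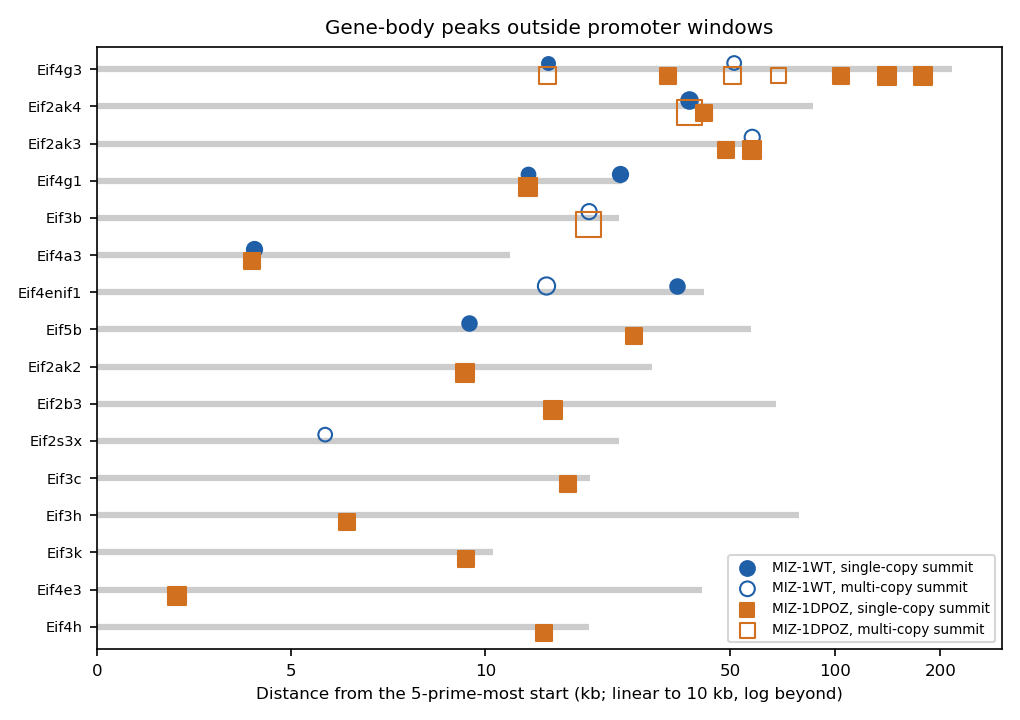
Gene-body peaks of the 16 Eif genes that had any (y axis) by distance from the 5-prime-most start (x axis, kb, linear to 10 and log beyond), with grey bars for gene length. Circles are MIZ-1WT, squares MIZ-1DPOZ, their area grows with the fragments at the summit, and open symbols are summits present more than once in the genome. The largest symbols, at Eif2ak4 and Eif3b with 27 fragments each, are open.

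No promoter peak in either list was found at 13 Eif genes, and 10 of these had no body peak either. Their promoters had a median GC content of 54.1%, against 61.0% for the 22 genes in both lists. For protein-coding genes as a whole these values were 48.6% and 62.4%. The nearest peak to a start of the 13 genes was 2.87 to 102.0 kb away in the MIZ-1WT list and 3.04 to 42.9 kb in the MIZ-1DPOZ list.

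Genes that act next to the initiation factors were counted for comparison. Of 39 listed genes 38 matched the annotation. Of these, 17 (44.7%) had a MIZ-1WT and 21 (55.3%) a MIZ-1DPOZ promoter peak, against 30.9% and 48.7% of all protein-coding genes. No weighting by GC was made for this list, so an excess over genes of like GC was not tested. Elongation factors had 2 and 5 of 9, termination and recycling factors 2 and 4 of 6, poly(A) and cap partners 7 and 5 of 10, mTORC1 and MNK control genes 5 and 5 of 7, and integrated stress response genes 1 and 2 of 6.

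Mlst8, a subunit of the mTOR complexes, had the tallest MIZ-1WT peak of these, with 36 fragments (fold 15.6, −log10 q 33.8), rank 84 of 6777. Its MIZ-1DPOZ peak held 13 fragments (fold 5.71, −log10 q 6.53), a scaled ratio of 0.269 (0.131 to 0.520). It was the only one of the 12 related genes in both lists whose interval did not hold 1. Mlst8, like Eif2b3, was noticed for its MIZ-1WT height. Of the 130 protein-coding pairs with at least 20 MIZ-1WT fragments, 100 had a ratio below 1. The low ratio of Mlst8 is therefore a description as well. Atf4, the transcription factor translated when eIF2 alpha is phosphorylated, was in MIZ-1WT alone (8 fragments, −log10 q 3.28). Eef1a1, Eef1b2 and Eef2, core elongation factors, had no promoter peak.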

How the data were processed

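MIZ-1 ChIP and input libraries of B220+ splenocytes were sequenced as paired ends, with 1 of each per genotype. The authors called narrow peaks with MACS2 for each ChIP library over its input. Their methods name bwa, while the submitters' processing notes name Bowtie2 2.2.6 and MACS2 2.1.0, on mm10, and the methods give another MACS2 version; the q cutoff and the treatment of duplicates are not given in the sources used here. The deposited lists give per peak a fold enrichment (a ratio) and the −log10 of a p-value and of a q-value. Reads and inputs were not analysed here.

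Peaks were joined to GENCODE vM21 basic genes on GRCm38 (mm10). Fragments at a summit were solved from fold and −log10 p under MACS2's formulas, which gave whole numbers for 99.97% and 99.99% of peaks. The solver and the GC weighting were tested on simulated data. Depth was the most frequent background over the smallest peak width. GC content was taken within 500 bp of the 5-prime-most start, in 10 strata of other protein-coding genes. A summit was single-copy when the median genome count of 5 sequences of 50 bases was 1, and masked above 50%. Shares carry Wilson intervals and ratios exact binomial intervals with the depth ratio fixed, all at 95%. No test was run, since each group was 1 library.

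The members, gene lists and motifs were chosen with earlier results of these data known. Pileup and −log10 q were given for the 10 genes in both lists with the largest smaller −log10 q, every gene in MIZ-1WT alone (up to 8), the 8 leading genes in MIZ-1DPOZ alone and the 3 leading body peaks of each list; others, and Mlst8 and Atf4, were named after their values were seen. The weighting by gene length and the tall-peak groups were added after seeing the data. Alternatives were other cutoffs, windows, start assignments, strata and overlaps. Tables were handled in Python 3.11.15 (pandas 2.3.3, numpy 2.4.6), intervals computed with scipy 1.17.1, sequences counted with numba 0.67.0, and plots drawn in matplotlib 3.10.9.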

Additional observations from a re-analysis of the deposited data

How the results depend on the processing

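No paired analysis was possible because there was 1 ChIP library per genotype. The counts of Eif genes depended on the strength asked of a peak. With a −log10 q of 2 or more 3 genes were in MIZ-1WT alone. With a −log10 q of 5 or more, the MIZ-1WT promoter count was 6, with 5 genes in both lists, 1 in MIZ-1WT alone and 24 in MIZ-1DPOZ alone, and body peaks were at 2 genes in MIZ-1WT and 9 in MIZ-1DPOZ. The Eif shares were then 10.9% for MIZ-1WT, against 9.77% of all protein-coding genes and 13.2% by GC, and 52.7% for MIZ-1DPOZ, against 33.3% and 43.8%. At a fold of at least 5, 13 genes had a MIZ-1WT promoter peak (23.6%, against 17.2% of all and 23.5% by GC), 11 were in both lists, 2 in MIZ-1WT alone, and 9 had a MIZ-1DPOZ body peak. With equal numbers of peaks, 23 had a MIZ-1DPOZ promoter peak, 14 were in both, 14 in MIZ-1WT alone, 9 in MIZ-1DPOZ alone and 8 had a MIZ-1DPOZ body peak. At these alternative settings no share over all genes is given for counts in both lists, in 1 list alone or in gene bodies. Those counts therefore describe the Eif genes only and show no contrast with other genes. Without GC strata the MIZ-1DPOZ share stood 16.8 percentage points above other genes. Over the alternatives that kept GC strata, the excess over genes of like GC ran from −2.30 to 10.9 points in MIZ-1WT and from −2.62 to 9.30 in MIZ-1DPOZ, so its sign was not settled. The median log2 ratio ran from −0.29 (reciprocal overlap of 50%) to 0.16. With a −log10 q of 5 or more, 6 of the 16 MIZ-1WT and 17 of the 18 MIZ-1DPOZ promoter calls at named genes remained, Eif2b3 among both. The Eif promoter peaks other than Eif2b3 rested on 18 fragments or fewer, and depth itself was not varied.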

Other observations

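Some closely related Eif genes shared their lists and others did not; these examples were chosen after their values were seen. Eif5a and Eif5a2, Eif1a and Eif1ax, and the 3 eIF4G genes were in both lists. Of the pairs Eif4a1 and Eif4a2, Eif3j1 and Eif3j2, and Eif2s3x and Eif2s3y, the first split into the MIZ-1WT list only (9 fragments) and both lists (6 and 11). The second split into both lists (7 and 16) and the MIZ-1DPOZ list only (13), and the third into the MIZ-1WT list only (6) and neither. For the third pair the split cannot be read further, since Eif2s3y is Y-linked and the sex of the mice is not stated.

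The nearest MIZ-1DPOZ peak to Eif4enif1, 8.74 kb from a start, had a −log10 q of 147.1 at a single-copy summit. It lay outside the gene and its promoter windows, and the gene had no MIZ-1DPOZ body peak.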
